A study of Mus musculus with 2 samples.

Results

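Open chromatin that lies more than 100 kb from every protein-coding transcription start site (TSS) was described in the midbrain of mouse embryos. DNase-seq, in which DNase I cuts accessible DNA and the cut ends are sequenced, was run on 1 group of 2 biological replicates of embryonic day 11.5 midbrain from strain B6NCrl. Each replicate pooled male and female embryos, and no mutant, treatment, input or other tissue belonged to the group. Peaks on chromosomes 1 to 19 were merged where they overlapped by 1 bp or more, and a merged region with peaks from both replicates is called a shared site. A shared site was kept where its midpoint lay more than 100 kb from all TSSs of basic GENCODE vM21 transcripts of protein-coding genes. Basic transcripts are a subset of those annotated. This left 15609 far sites of 87757 shared sites, or 17.8%. With TSSs of all transcripts of these genes, 12384 were left. The rule used position and presence in both lists, not the strength of the signal.

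Gene deserts are long stretches without protein-coding genes. Many of those known to hold regulatory DNA lie beside genes of transcription factors that act in development. Enhancers in such stretches can act on promoters over long distances, and accessible DNA is a common mark of an enhancer, although it also marks promoters of noncoding genes and sites bound by CTCF, the factor that anchors chromatin loops. In the embryonic midbrain, dividing progenitors and young neurons depend on homeobox, Sox and basic helix-loop-helix factors, which bind short sequences searched for here.

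The name gene desert holds for only a part of the far sites. Of the 15609, 10824 (69.3%) lay outside every protein-coding gene body. The other 4785 (30.7%) lay inside the body of very long genes, far from the basic TSSs of the gene. A site inside more than 1 body was assigned to the longest gene, which gave 857 genes. Lrmda held 52 of the 4785 sites, and Ptprn2, a phosphatase-like protein of secretory vesicles, held 49. The predicted gene Gm20388 held 48 in a body of 4435 kb, and Ctnna2, a neural catenin, held 38. Zfhx3, a zinc finger homeobox factor, and Macrod2 held 37 each. Far sites inside bodies numbered 21.7 per Mb of eligible sequence and those outside 14.5 per Mb. The share inside a body fell from 38.9% at 100 to 200 kb to 5.47% beyond 1 Mb, and site density also fell with distance, as given below. The part of distance in these 2 densities was not tested. Median signals were close, at 37 and 17 inside against 34 and 17 outside in replicates 1 and 2. The far sites as a whole are therefore called by their rule below.

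Sequences are shown first for 4 of the 5 strongest far sites, all within 1 kb of an annotated noncoding TSS, with the promoter-like sequence content described below. The site left out, the second strongest, had 70% GC and a GGGCGG match too, but lay 136 kb from the nearest noncoding TSS. Strength is the mean over both replicates of the site's percentile of deposited signal among all shared sites. All sequences are the plus strand of GRCm38 (mm10) from RefSeq, 5′ to 3′, with capitals for matches on either strand to the E-box CAGCTG, the Sox-type sequences ACAAAG and also ACAATG, the homeobox sequence TAATTA, the octamer ATGCAAAT, the Sp/Klf sequence GGGCGG and the CTCF consensus.
upstream of Zswim6, chr13:107890196-107890405: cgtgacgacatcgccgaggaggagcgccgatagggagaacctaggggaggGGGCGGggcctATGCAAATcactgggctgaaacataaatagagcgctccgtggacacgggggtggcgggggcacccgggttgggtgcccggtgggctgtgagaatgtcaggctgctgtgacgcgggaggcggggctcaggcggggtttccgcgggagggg
upstream of Gm20732, chr15:68363256-68363445: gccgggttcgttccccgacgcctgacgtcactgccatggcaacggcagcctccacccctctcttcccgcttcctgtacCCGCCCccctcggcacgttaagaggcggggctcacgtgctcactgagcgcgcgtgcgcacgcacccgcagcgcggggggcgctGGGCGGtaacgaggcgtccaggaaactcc
upstream of Trerf1, chr17:47139876-47140045: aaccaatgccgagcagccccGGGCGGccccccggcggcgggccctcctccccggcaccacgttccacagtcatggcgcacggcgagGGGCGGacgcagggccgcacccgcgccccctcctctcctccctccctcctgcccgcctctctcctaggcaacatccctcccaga
upstream of Gm26901, chr1:7398076-7398245: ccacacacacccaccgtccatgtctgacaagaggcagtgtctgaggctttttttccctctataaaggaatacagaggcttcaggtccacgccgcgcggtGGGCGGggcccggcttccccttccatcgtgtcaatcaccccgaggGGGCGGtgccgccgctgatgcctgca

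Of these 4, the Zswim6 site had the only octamer, ATGCAAAT, and each site had at least 1 capitalised GGGCGG, the core bound by Sp and Klf factors. The next set shows the strongest far site with a CTCF match, the far site most distant from any TSS, and the strongest far site of 4 site-rich stretches taken up below.
CTCF, between Lsamp and Gap43, chr16:42190236-42190425: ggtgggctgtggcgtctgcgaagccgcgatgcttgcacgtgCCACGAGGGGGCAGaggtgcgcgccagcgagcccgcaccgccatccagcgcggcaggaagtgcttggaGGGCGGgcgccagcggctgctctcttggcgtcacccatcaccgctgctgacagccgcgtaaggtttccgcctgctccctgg
farthest, between Cntnap5b and Cdh20, chr1:102288376-102288545: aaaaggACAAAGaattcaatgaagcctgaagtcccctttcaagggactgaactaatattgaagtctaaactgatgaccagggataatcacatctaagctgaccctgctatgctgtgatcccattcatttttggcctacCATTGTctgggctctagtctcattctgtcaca
between Tmem182 and Pou3f3, chr1:41390241-41390540: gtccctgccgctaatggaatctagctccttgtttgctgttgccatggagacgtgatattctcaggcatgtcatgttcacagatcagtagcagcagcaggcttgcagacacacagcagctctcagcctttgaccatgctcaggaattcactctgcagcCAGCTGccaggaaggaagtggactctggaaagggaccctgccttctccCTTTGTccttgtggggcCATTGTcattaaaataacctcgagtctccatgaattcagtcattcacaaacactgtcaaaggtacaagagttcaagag
between Mef2c and Tmem161b, chr13:83745056-83745305: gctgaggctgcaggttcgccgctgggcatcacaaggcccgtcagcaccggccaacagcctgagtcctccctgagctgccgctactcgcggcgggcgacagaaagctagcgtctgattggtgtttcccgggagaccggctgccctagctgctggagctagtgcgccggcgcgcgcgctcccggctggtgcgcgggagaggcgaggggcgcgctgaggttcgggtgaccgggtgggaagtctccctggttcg
between Cmpk2 and Sox11, chr12:27140436-27140605: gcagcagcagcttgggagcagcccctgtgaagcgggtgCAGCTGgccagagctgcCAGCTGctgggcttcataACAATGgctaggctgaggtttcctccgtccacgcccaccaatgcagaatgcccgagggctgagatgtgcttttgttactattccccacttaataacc
between Ptprn2 and Rapgef5, chr12:117153776-117153965: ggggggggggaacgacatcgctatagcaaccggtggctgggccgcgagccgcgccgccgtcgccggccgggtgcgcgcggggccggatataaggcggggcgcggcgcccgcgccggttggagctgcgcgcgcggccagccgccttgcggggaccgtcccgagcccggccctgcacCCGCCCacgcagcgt

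The 10 sequences are of 2 sorts. Those of the strongest sites, the Mef2c and Ptprn2 stretches and the CTCF site were rich in G and C, with 62.7% to 82.0% GC in the central 150 bp. The Pou3f3 and Sox11 stretches, at 56.0% and 58.7% GC, and the farthest site, at 43.3%, had Sox-type matches and none to GGGCGG. The Pou3f3 and Sox11 sites also had CAGCTG, the E-box of proneural basic helix-loop-helix factors, and the Mef2c site had none of the sequences.

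Replicates were uneven in list length. Replicate 1 had 306572 deposited peaks and replicate 2 had 455245, of which 300618 and 447681 were on chromosomes 1 to 19. Their deposited signals, whole numbers per peak with no stated scale, had medians of 18 and 8, and read depth is unknown. At the TSS, a peak of each replicate lay at 7 of 8 midbrain markers, 6 of 6 neural progenitor markers and 4 of 4 neuronal markers. This was also so at 3 of 3 forebrain, 3 of 5 mesenchyme, 1 of 5 endothelial, 1 of 4 surface epithelium, 0 of 5 microglial and 0 of 3 erythroid markers. The part that other cells had in the far sites was not tested.

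Far sites were sparse, and most far peaks were seen in a single replicate. Of 183879 far merged regions, 8.49% held a peak of each replicate, against 14.1% of nearer distal regions, 2.5 to 100 kb from a TSS, and 53.6% of promoter regions within 500 bp of a TSS. Over all 574914 merged regions the share was 15.3%. Sequence more than 100 kb from a TSS made up 967 Mb of 2396 Mb, or 40.4%, and held 16.1 far sites per Mb. Nearer distal sites, 43872 in all, numbered 33.5 per Mb.

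The density of shared sites fell with distance far more than the density of the regions of either replicate. Per Mb, shared sites numbered 29.1 at 50 to 100 kb, 23.8 at 100 to 200 kb, 16.2 at 200 to 500 kb, 7.72 at 500 to 1000 kb and 3.40 beyond 1 Mb. Over the same 5 bins replicate 1 had 108, 109, 99.5, 83.5 and 59.0 regions per Mb. Replicate 2 had 155, 141, 115, 72.7 and 44.1 regions per Mb. The share of merged regions found in both accordingly went down in every step, to 3.41% beyond 1 Mb.

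The share found in both depended on signal. In the highest signal decile of replicate 1, 82.2% of far regions had a peak of replicate 2, against 88.5% of nearer distal regions, and in the lowest decile 2.37% had, against 3.85%. In the highest decile of replicate 2, 87.9% of far regions had a peak of replicate 1, against 86.7% of nearer distal regions, and in the lowest decile 1.92% had, against 1.90%. Far regions were below nearer distal regions in every decile of replicate 1 and above them in every decile of replicate 2, so the direction turned with the replicate that set the deciles. The whole lists differed more, with 16.8% of far and 32.4% of nearer distal regions of replicate 1 found in replicate 2, and 14.7% and 20% of those of replicate 2 found in replicate 1.

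**Figure D1:**
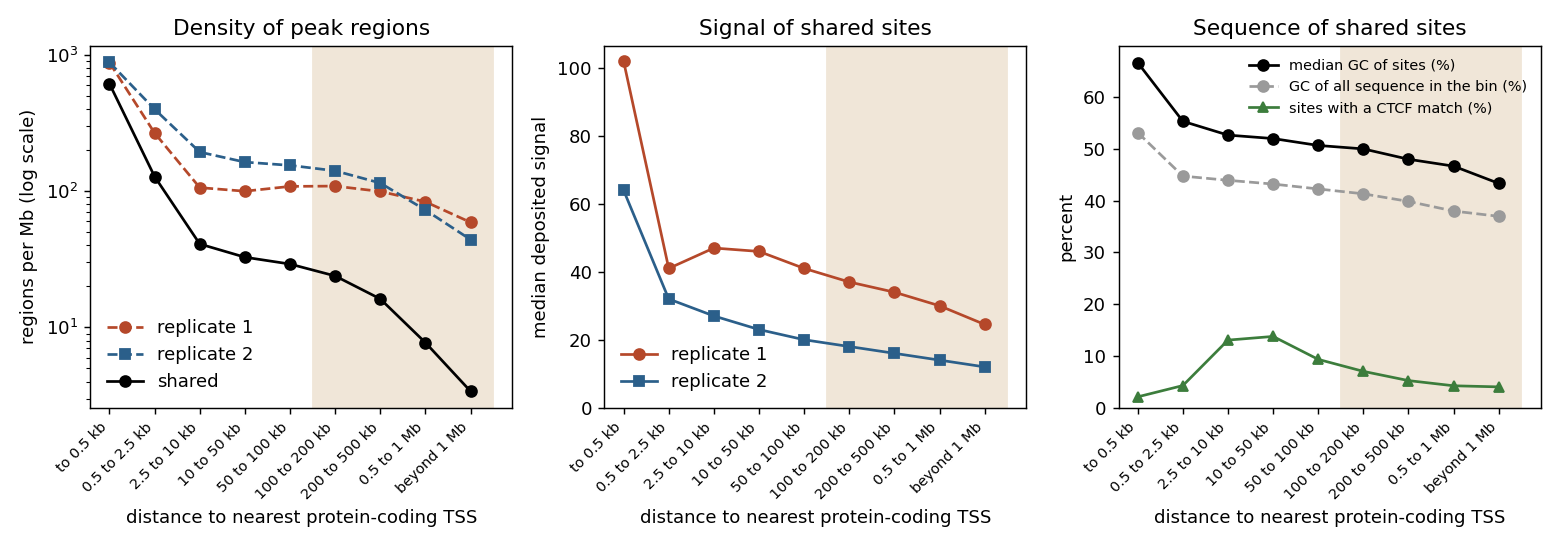
Density of peak regions per Mb (log axis), median deposited signal, and sequence content (percent) of shared sites by distance to the nearest protein-coding TSS, with far sites on the shaded ground. Beyond 100 kb the density of shared sites falls to 3.40 per Mb, while the lists of the 2 single replicates fall to 59.0 and 44.1 per Mb.

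Distances of the far sites had a median of 199 kb and an interquartile range of 138 to 332 kb. Beyond 500 kb lay 1669 far sites (10.7%) and beyond 1 Mb 274 (1.76%). The most distant lay 2480 kb from Cdh20, a cadherin gene, and had signals of 31 in replicate 1 and 29 in replicate 2. The next lay 2463 kb from the protocadherin gene Pcdh9, with signals of 14 and 10. The other 3 of the 5 most distant sites lay between Tenm3, a teneurin adhesion gene, and Aga, at 2272 to 2366 kb. All 5 lay outside gene bodies, and none was strong. At the limit of the rule, the site just inside lay 100004 bp from a TSS within Frmd4a, with signals of 27 and 25, and the site just outside lay 99998 bp from Irx4, with signals of 124 and 79.

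Far sites were weaker than nearer distal sites in both replicates. Their signal had a median of 35 and an interquartile range of 20 to 57 in replicate 1, and a median of 17 and a range of 11 to 26 in replicate 2. Nearer distal sites had medians of 45 and 23, with ranges of 27 to 68 and 15 to 36, and promoters had medians of 102 and 64. The ranges of far and nearer distal sites overlap widely. Within the far sites the medians went down with distance, with 37 and 18 at 100 to 200 kb, 34 and 16 at 200 to 500 kb, 30 and 14 at 500 to 1000 kb and 24.5 and 12 beyond 1 Mb. A mean signal percentile above 90 was reached by 69 far sites (0.442%), against 1.54% of nearer distal sites and 42.6% of promoters. Across the 15609 far sites, which share the 2 libraries, signals of the replicates had a Spearman's rho of 0.734, and across nearer distal sites the value was 0.730.

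**Figure D2:**
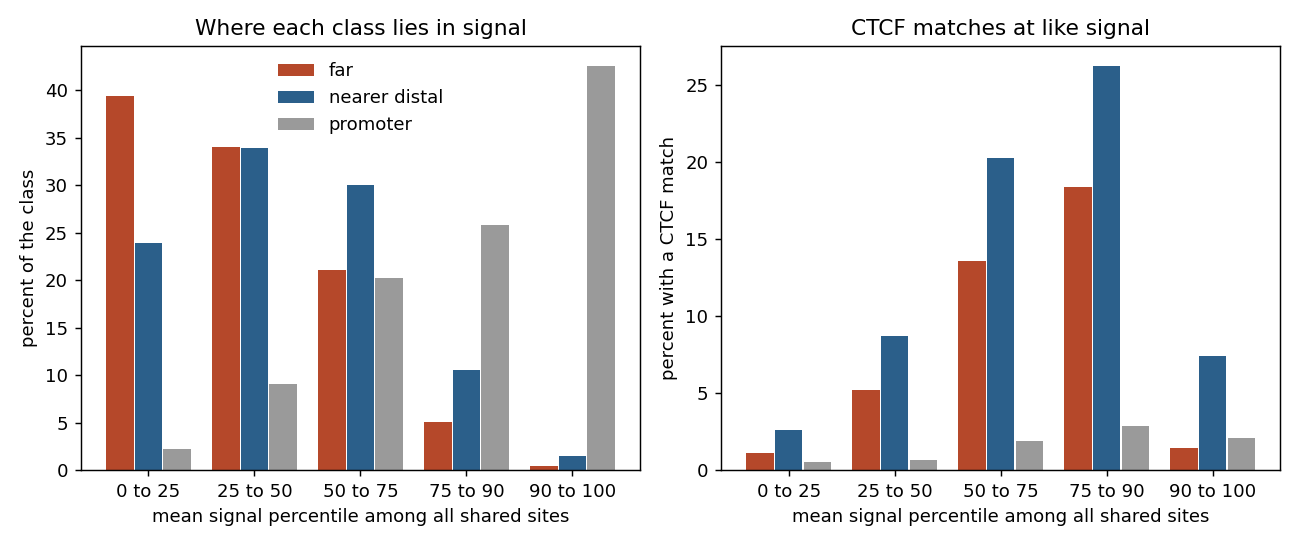
Share of far, nearer distal and promoter sites in 5 ranges of mean signal percentile (left, percent of the class), and share of sites with a CTCF match within each range (right, percent). In the range from 75 to 90, 18.4% of far sites had a CTCF match, against 26.3% of nearer distal sites.

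The strongest far sites resembled promoters in their sequence, and 6 of the 10 lay within 1 kb of an annotated noncoding TSS. The strongest of all, at chromosome 13, positions 107890196 to 107890405, had signals of 143 and 89 and lay 237 bp from a TSS of Zswim6, a zinc finger gene. GENCODE vM21 types Zswim6 as a processed transcript, so the site counts as far, but RefSeq places a protein-coding TSS of Zswim6 at the same 237 bp. The fourth, with signals of 137 and 82, lay 914 bp from a GENCODE TSS of Trerf1, typed in the same way, and 981 bp from a RefSeq protein-coding TSS of that gene. Of the other strongest sites, those shown above lay 175 bp from the long noncoding RNA gene Gm20732 (signals 133 and 86) and 292 bp from Gm26901 (126 and 96). GC in the 10 sites was between 60% and 77.3%, and each had at least 9 CpG dinucleotides in 150 bp.

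Against RefSeq, 83 far sites (0.532%) lay within 500 bp of a TSS of an mRNA, and 35 of a curated mRNA. These sites included 5′ ends of Foxn3 (signals 112 and 84), Ssh2 (110 and 83), B3galt1 (122 and 69) and Tenm3 (97 and 71). They had median signals of 55 and 33 and a median GC of 55.3%. Within 100 kb of a RefSeq mRNA TSS lay 1919 far sites, or 12.3%, and within 100 kb of a curated mRNA TSS 333, or 2.13%. The rule therefore keeps a small number of RefSeq promoters of coding genes that its set of basic GENCODE coding TSSs did not hold.

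In GC and CpG content, far sites stood between the windows beside them and the nearer distal sites. Their central 150 bp had a median GC of 48.7%, against 52.0% in nearer distal sites, 66.7% in promoters and 43.3% in the windows 1 kb to each side of the far sites. CpG dinucleotides, which are depleted in most of the mouse genome, were present at a median of 0.234 of their expected number in far sites and 0.268 in nearer distal sites, against 0.831 in promoters. No CpG at all was found in 17.1% of far sites, 11.7% of nearer distal sites and 32.5% of the flanking windows. Masked repeats made up 10.3% of far-site sequence, 11.4% of nearer distal sequence and 22.6% of the flanks. The median GC of far sites went down with distance, with 50% at 100 to 200 kb, 48% at 200 to 500 kb, 46.7% at 500 to 1000 kb and 43.3% beyond 1 Mb. The GC of all sequence in these bins went down too, with 41.3%, 39.9%, 38.0% and 37.0%.

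Of the 21 motifs searched, CTCF had the largest ratio of its share in far sites to its share in the flanks, 52.2. A match to the CTCF consensus was present in 939 far sites (6.02%), against 12.6% of nearer distal sites, 8.32% of all shared sites and 0.115% of the flanking windows of the same length. The share of shared sites with a match was 13.8% at 10 to 50 kb, 9.33% at 50 to 100 kb, 7.01% at 100 to 200 kb, 5.23% at 200 to 500 kb, 4.23% at 500 to 1000 kb and 4.01% beyond 1 Mb. Far sites with a match were stronger, with median signals of 59 and 30, against 33 and 16 without. At like signal the far share stayed below the nearer distal share. It was 13.6% against 20.3% at mean percentiles of 50 to 75, and 5.21% against 8.72% at 25 to 50. Above 90, 1.45% of 69 far sites and 7.41% of nearer distal sites had a match. The strongest far site with a CTCF match lay between Lsamp, a neuronal adhesion gene, and Gap43, a growth cone protein gene, with signals of 122 and 64.

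Matches to developmental factors were spread over many far sites, at shares a little above those of nearer distal sites. ACAAAG, bound by Sox and Tcf/Lef factors, was found in 19% of far sites, 16% of nearer distal sites, 14.3% of all shared sites and 13.4% of flanking windows. ACAATG, a Sox sequence that shares its first 4 bases with it, was found in 11.9%, 9.10%, 8.10% and 9.54% of the same sets. CAGCTG, the palindromic E-box, was found in 15.1% of far sites, 14.5% of nearer distal sites, 13.3% of all shared sites and 6.20% of flanking windows, and CAGATG, the E-box of Neurog and NeuroD factors, in 15.9%, 14.8%, 12.6% and 11.3%. TGACAG, of Meis and Pbx cofactors, was found in 15.4%, 13%, 11.9% and 10.3%, and the POU octamer ATGCAAAT in 1.92%, 1.28%, 1.19% and 1.18%.

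Not every sequence followed that pattern. TAATTA, of LIM and Engrailed homeobox factors, was found in 4.75% of far sites and 3.07% of nearer distal sites but in 5.82% of the flanking windows, and AGATAA, of GATA factors, in 6.82%, 5.30% and 9.83%. TGTTTAC, of forkhead factors, was found in 2.12%, 1.65% and 2.43%. For TAATCC, of Otx factors, the shares were 5.45%, 4.47% and 5.22%, so far sites were close to their flanks. GGGCGG was found in 5.05% of far sites, 9.20% of nearer distal sites, 17.8% of all shared sites and 1.85% of flanks, and in 52.2% of the far sites above the mean signal percentile of 90. CAGCAGG, of Zic factors, was found in 8.50% of far sites, 10.4% of nearer distal sites and 3.49% of flanks, and GCCNNNGGC, of TFAP2 factors, in 4.73%, 6.53% and 2.30%. The long consensus sequences of REST, RFX and NFI factors were found in 0.442%, 0.769% and 0.308% of far sites, against 0.303%, 0.884% and 0.392% of nearer distal sites. Their shares in the flanks were 0.0160%, 0.0609% and 0.0545%. For REST the far share was thus above both sets, and for RFX and NFI above the flanks only. All motifs were searched on both strands, and short ones depend on base composition, which differed between these sets.

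Noncoding genes lay near a minority of far sites. They were taken as all gene types other than protein-coding and immune receptor genes, so pseudogenes are among them. A noncoding TSS lay within 1 kb of 738 far sites (4.73%), against 5.94% of nearer distal sites, and within 10 kb of 21.1%, against 29.8%. Where the nearest noncoding TSS had to be of a long noncoding RNA type, the shares within 1 kb were close, at 3.54% and 3.69%. The median distance to a noncoding TSS was 38.4 kb for far sites and 22.5 kb for nearer distal sites, and 41.7% of far sites lay more than 50 kb from any. Far sites lay inside the body of a long noncoding RNA gene more often, at 13.4% (2084 sites) against 9.75% of nearer distal sites. The 738 sites belonged to 509 genes, and 423 of the sites were at long intergenic noncoding RNA genes. These 738 sites had median signals of 44.5 and 25, against 35 and 17 in the other far sites, and a median GC of 52.0% against 48.7%.

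Among the 10 noncoding genes with the strongest far site within 1 kb, all had signals of at least 112 in replicate 1 and 63 in replicate 2. Besides Zswim6, Trerf1, Gm20732 and Gm26901, they were Gm11205 (signals 129 and 86), Gm6420 (133 and 80), 1700064M15Rik (125 and 84), Gm26839 (112 and 84), Epb41l4aos (124 and 66) and Gm32123 (127 and 63). Gm26839 and 1700064M15Rik lie between Foxn3, a forkhead gene, and Efcab11, and the Gm26839 site is the RefSeq 5′ end of Foxn3 named above.

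MicroRNA genes with known roles in neurons were among the noncoding genes in the far sites. Far sites within 10 kb of a microRNA gene numbered 212 (1.36%), near 92 genes, and 7 far sites overlapped 8 of the 919 RefSeq hairpins on chromosomes 1 to 19. These counts are not given for nearer distal sites, so they do not set far sites apart. Mir137, which acts in neurogenesis, overlapped a site with signals of 63 and 46, with 6 far sites assigned to it within 10 kb. Mir9-2, a source of miR-9 in neural progenitors, overlapped a site with signals of 41 and 33, with 20 assigned to it. The sites of both are shown because they hold mature microRNA sequence, in capitals.
Mir137 site, chr3:118433776-118433945: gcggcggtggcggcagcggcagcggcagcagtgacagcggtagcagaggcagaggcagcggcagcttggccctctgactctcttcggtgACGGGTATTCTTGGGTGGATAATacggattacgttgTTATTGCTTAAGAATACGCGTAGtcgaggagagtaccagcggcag
Mir9-2 site, chr13:83738676-83738865: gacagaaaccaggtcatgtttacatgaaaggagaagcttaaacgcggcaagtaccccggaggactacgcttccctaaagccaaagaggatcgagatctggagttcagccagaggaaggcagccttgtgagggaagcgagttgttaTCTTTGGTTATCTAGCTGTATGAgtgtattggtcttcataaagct

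Both arms of miR-137 lay inside the first site, and only the 5p arm of miR-9 lay inside the second. The second also held the hairpin Gm51268. The remaining overlapping hairpins had weaker or less even sites. Mir153 had signals of 16 and 23, Mir344 of 34 and 9, Mir148a of 22 and 12, Mir3067 of 21 and 12 and Mir344i of 15 and 10. Mir344, Mir344-2 and Mir344i lie between Snrpn and Ndn, genes of an imprinted region, and the Mir344-2 site had signals of 74 and 16.

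Far sites were unevenly spread over the stretches between neighbouring protein-coding TSSs, called TSS gaps here. Of 2443 gaps with eligible sequence, 1883 (77.1%) held a far site, with a median of 3 over all gaps. The 299 gaps with the most far sites (12.2% of gaps) together held at least 50% of them in 31.9% of the eligible sequence. Gaps without a far site, 560 in all, held 5.54% of it. Among 572 gaps with at least 500 kb of eligible sequence, the median density was 9.73 far sites per Mb, with an interquartile range of 4.14 to 20.7, and 19 had none.

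The 2 richest gaps flank the same gene. Zfp608, a zinc finger gene on chromosome 18, had 93 far sites on the side of Csnk1g3 and 92 on the side of Gramd3. In the first, replicate 1 had 218 regions and replicate 2 had 407, and median signals of the shared sites were 31 and 16. In the second they had 208 and 399 regions, with medians of 38.5 and 22. The far sites of both gaps lay outside protein-coding gene bodies, and a CTCF match was found at 1 site in the first and 0 in the second.

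Of the 10 gaps with the most far sites, 4 border a gene of the developmental factor families listed below, as do 225 of all 2443 gaps. The gap from Tmem182 to Pou3f3, a POU homeobox gene of the embryonic brain, held 66 far sites (median signals 31 and 19.5). The gap from Mef2c, a MADS-box factor of neurons and muscle, to Tmem161b held 64 in only 447 kb of eligible sequence, or 143 per Mb (39.5 and 26). The gap from Cmpk2 to Sox11, a factor of young neurons, held 63 (33 and 12), and that from Nr2f1, an orphan nuclear receptor, to Arrdc3 held 61 (24 and 13). The gaps from Tmem38b to Zfp462 and from Ccdc171 to Bnc2 held 58 and 56, and 41 of the 56 lay in the Ccdc171 body. The gaps from Ptprn2 to Rapgef5 (62 far sites, 49 in the Ptprn2 body) and from Tmpo to Nedd1 (57), border a gene of none of these families.

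Among gaps with at least 500 kb of eligible sequence, the densest were from Csnk1g3 to Zfp608 (100 per Mb), Cmpk2 to Sox11 (93.6), Npvf to Nfe2l3 (91.7), Zfhx3 to Pmfbp1 (81.1) and Zfp608 to Gramd3 (76.0). CTCF matches were few in them, at 0 to 2 sites in each. The longest gap without a far site ran from Lingo2, a neuronal leucine-rich repeat protein gene, to 1700009N14Rik, with 2299 kb of eligible sequence. Replicate 1 had 78 regions there and replicate 2 had 77, and no region held peaks of both. The next were the gaps from 4931408C20Rik to Gm597 (1893 kb, with 10 and 70 regions), Atxn7l3b to Trhde (1672 kb, 104 and 30), Bche to Zbbx (1235 kb, 20 and 10) and Nrg3 to Sh2d4b (1180 kb, 197 and 4).

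**Figure D3:**
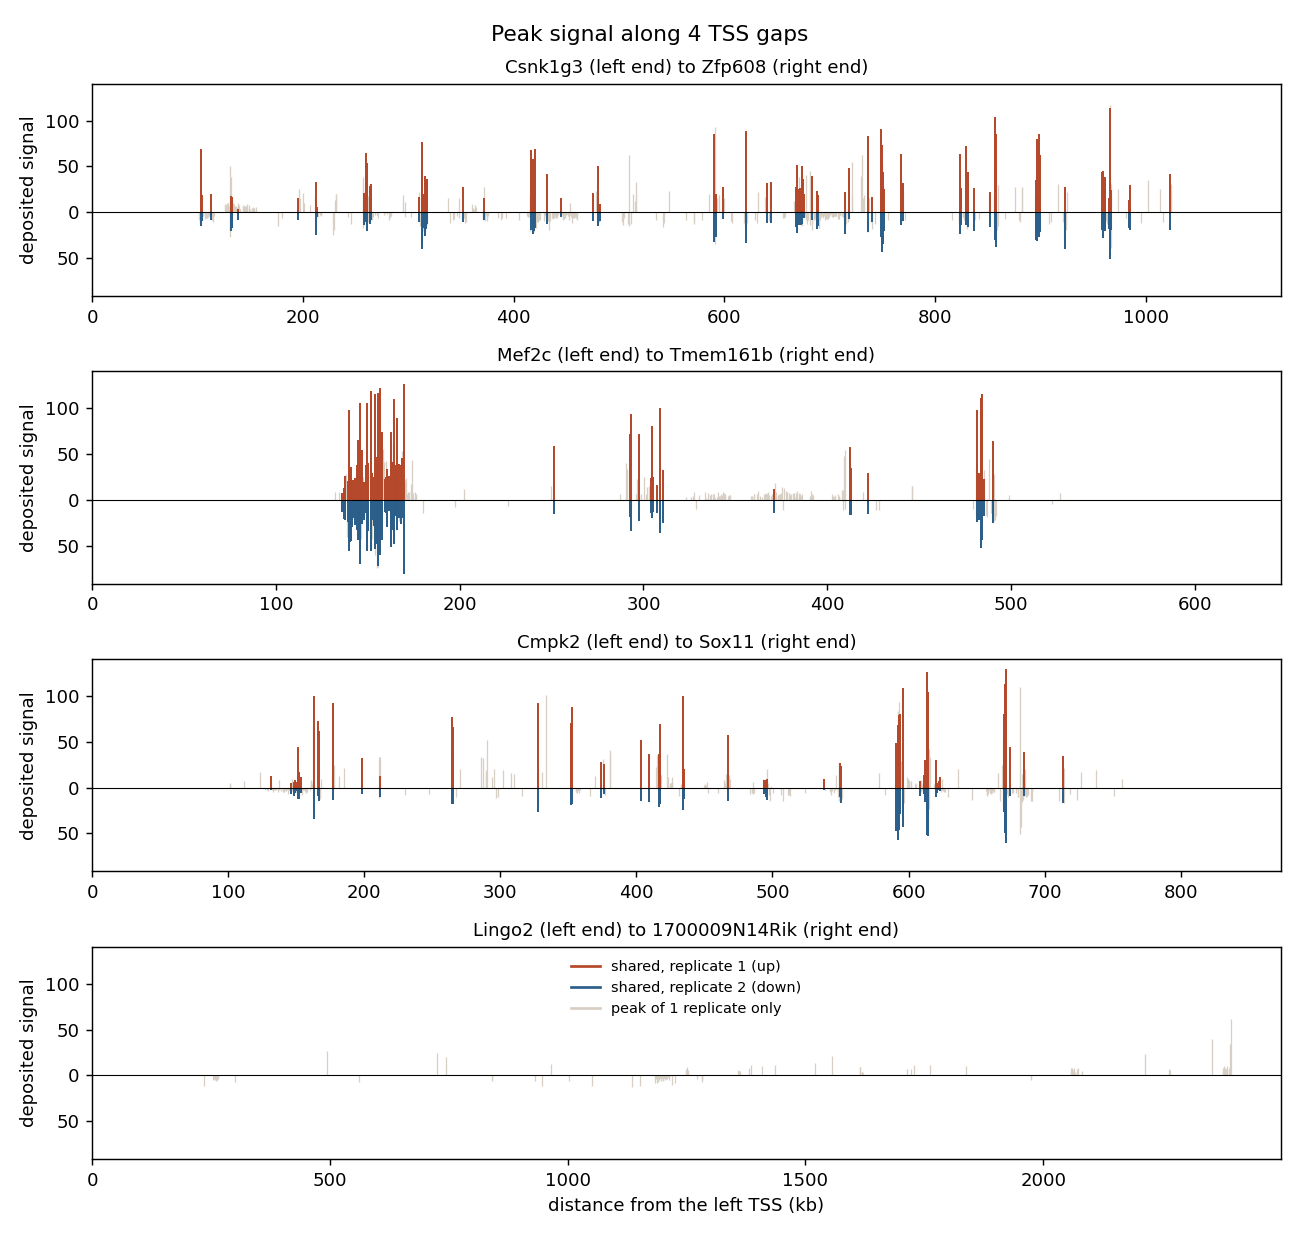
Deposited signal of peak regions along 4 TSS gaps, by distance from the left TSS (kb), with replicate 1 drawn up and replicate 2 drawn down. Shared sites are coloured and regions of a single replicate are pale. The Mef2c gap has 64 shared sites, 43 of them in a stretch of 33.9 kb, and the Lingo2 gap has 0.

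Grouped by the genes beside them, gaps of transcription factor genes were the densest. For each gene that borders a gap, far sites per Mb were counted over the gaps it borders, and over all 3714 such genes the median was 15.5, with an interquartile range of 3.78 to 34.7. The median was 36.3 for 64 genes of the homeobox list, 33.4 for 24 Sox and forkhead genes, 29.0 for 69 zinc finger, nuclear receptor and other developmental factor genes and 20.5 for 15 genes of basic helix-loop-helix and Notch effector factors. The homeobox list, used throughout as matched by symbol, also took in genes without a homeobox. These include Enc1 (16 far sites, 50.1 per Mb), Pax1 (17, 35.3) and Pax9 (9, 34.1). The list of secreted signals likewise took in Fgf12 and Fgf14 (8.30 and 6.23 per Mb), which encode intracellular factors. The median was 18.6 for 37 axon guidance genes and 13.6 for 37 genes of secreted signals and antagonists. It was 11.6 for 88 channel and neurotransmitter receptor genes and 7.62 for 70 cell adhesion genes. For 36 olfactory and vomeronasal receptor genes it was 0, with a median of only 65.4 kb of eligible sequence a gene. Summed over each family, the density of these receptor genes was 10.5 per Mb, above 8.85 for cell adhesion and 10.3 for channel genes, so their lowest place holds for the median only. The summed density of homeobox genes was 34.8 per Mb. Neighbouring genes share gaps and the lists were made by symbol with earlier results known, so these medians are a description.

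In single replicates homeobox and cell adhesion genes were closer together. Homeobox genes had medians of 126 regions per Mb in replicate 1 and 171 in replicate 2, and cell adhesion genes had 82.1 and 75.5, against 87.3 and 97.2 over all genes. Of the replicate 1 regions beside a homeobox gene, a median of 29.5% was shared, against 9.92% beside a cell adhesion gene and 20.8% over all genes. Gaps beside cell adhesion genes are long, with a median of 2004 kb of eligible sequence a gene, against 317 kb for homeobox genes and 217 kb for all, and density fell with distance from a TSS as given above. The part of gap length in these densities was not tested.

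**Figure D4:**
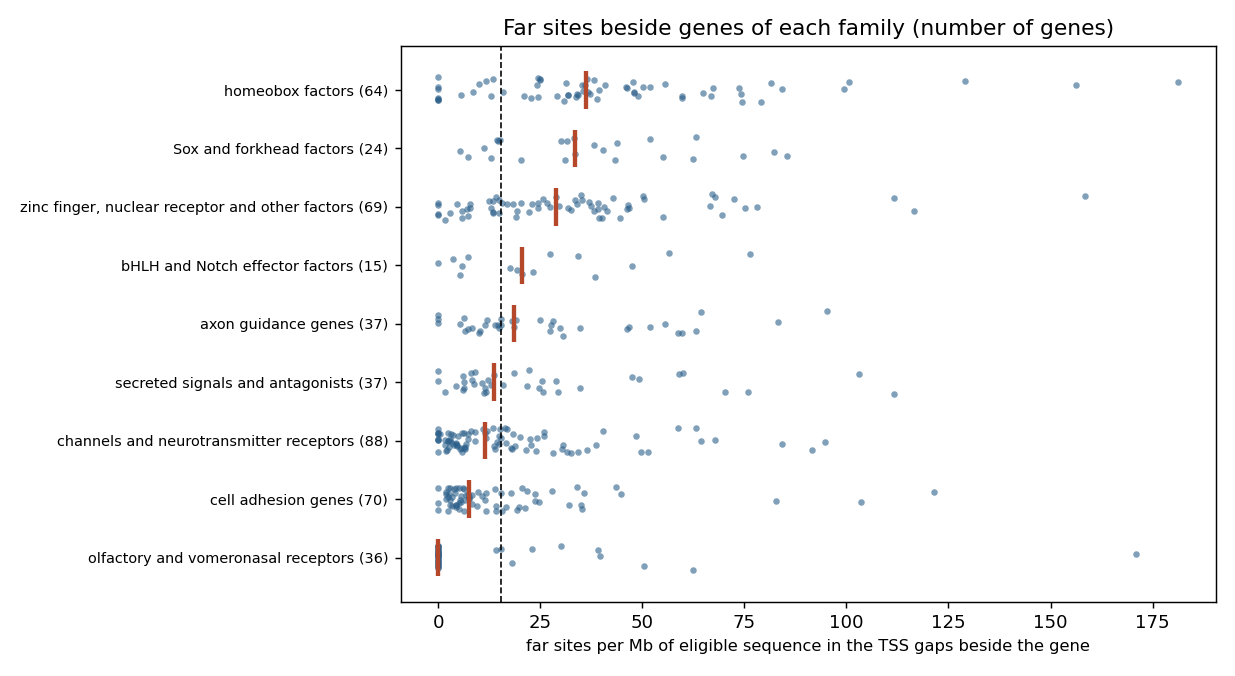
Far sites per Mb of eligible sequence in the gaps beside each gene, by gene family (1 point a gene), with the family median as a bar and the median of all 3714 genes beside a gap, 15.5, as a dashed line. Medians run from 36.3 for homeobox genes to 0 for olfactory and vomeronasal receptor genes, whose gaps had a median of only 65.4 kb of eligible sequence, and points of neighbouring families overlap widely. The homeobox points include Enc1, Pax1 and Pax9, which are not homeobox genes.

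By gap rather than by gene, 225 gaps bordered a gene of the 4 factor families, 124 a cell adhesion gene, and none both. The factor gaps held 18.7% of the far sites in 10.2% of the eligible sequence, or 29.5 per Mb, and the adhesion gaps 8.71% in 15.4%, or 9.11 per Mb, against 16.1 per Mb overall. Sites of the factor gaps had median signals of 37 and 18, and those of the adhesion gaps 28 and 14. CTCF matches were found in 3.77% of far sites in factor gaps and 6.40% in adhesion gaps, TAATTA in 5.56% and 4.12%, CAGCTG in 15.4% and 11.9%, and ACAAAG in 19% and 19.5%. Clusters of 3 or more, described below, held 52.5% and 37.8%.

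The genes with the most far sites in their gaps are given by family. Among homeobox genes, Zfhx3 had 78 far sites in its gaps, Pou3f3 66 and the TALE gene Meis1 53. Sox11 had 87, Sox9, a factor of glia and cartilage, 85, and the progenitor factor Sox2 70. Nr2f2, a nuclear receptor gene, had 88, Mef2c 77 and Nr2f1 61. Among basic helix-loop-helix and Notch effector genes, Id4 had 35, Id2 26 and the Notch effector Hes1 22 in 288 kb, or 76.4 per Mb. Cdh11 and Cdh8, cadherin genes, had 77 each, but over 4285 and 6497 kb, or 18 and 11.9 per Mb, and the teneurin gene Tenm2 had 63.

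Of the axon guidance genes, Robo1, a Slit receptor, had 57 far sites, Plxna2, a semaphorin coreceptor, 54 and the ephrin receptor gene Epha7 53. Of the channel genes, Kcnma1 had 57, the potassium channel gene Kcnj2 48 and the kainate receptor gene Grik3 32. Bmp7, a bone morphogenetic protein gene, had 21 in 188 kb, or 112 per Mb, and the follistatin-like gene Fstl5 18 in 2869 kb, or 6.27 per Mb. The 21 far sites of Bmp7 lay in the gap that it shares with Tfap2c, a gene of the developmental factor lists, which had the same 21. Kcnj2 also shares a gap with Sox9, and far sites there count for both genes. Olfr1507, Olfr1505 and Olfr161 had 22, 11 and 8. Genes whose gaps held none included Isl2 (178 kb eligible), Tcf12 (15.3 kb), Mef2a (72.3 kb), Cntnap3 (206 kb), Sema3c (61.4 kb), Gabrb2 (414 kb), Bmp3 (102 kb) and Vmn2r46 (297 kb).

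Far sites often had a near neighbour. The median distance to the next far site was 3.90 kb, against 3.53 kb among nearer distal sites, and 34.8% and 32.6% had a neighbour within 1 kb. With midpoints at most 10 kb apart joined, 6309 far sites (40.4%) lay in 1417 clusters of 3 or more, against 45.2% of nearer distal sites, and 5952 (38.1%) lay alone, against 32.6%. Far sites in clusters had median signals of 34 and 18, and those alone 36 and 16. CTCF matches were found in 8.43% of sites that lay alone, 6.0% of those in pairs, 4.31% in clusters of 3 to 9 and 0.526% in clusters of 10 or more.

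The 69 clusters of 10 or more far sites, with 951 sites, were of unlike strength. In 50 of them, with 678 sites, the median signal was below the lower quartile of all far sites in both replicates (20 and 11), and in 9, with 157 sites, it was at or above the median of all far sites in both (35 and 17). These limits were chosen after the values were seen. The 50 weak clusters had a median GC of 43.5% and a median of 18.3% masked sequence, and the 9 strong ones 50.3% and 11.1%. The median span was 17.3 kb in weak and 15.0 kb in strong clusters.

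The 9 strong clusters lay beside the following genes. The largest, 43 far sites over 33.9 kb on chromosome 13, lay 136 to 170 kb from Mef2c and had median signals of 39 and 33. It holds Mir9-2, and 29 of its sites lay in the body of the long noncoding RNA gene C130071C03Rik. A cluster of 25 sites over 21.1 kb on chromosome 3 (48 and 31) held 15 sites in the body of Mir124-2hg, the host gene of a microRNA of differentiating neurons. The cluster of 19 sites beside Meis1 had medians of 50 and 30 and that of 14 beside Meis2 55.5 and 39. Clusters of 10 or 11 sites beside Lhx5, a LIM homeobox gene (54 and 32), Nfe2l3 (80 and 45) and Ubash3b (46 and 24), and 1 between Isl1 and Parp8 (41 and 37), were also strong, as was a cluster of 14 within Ptprn2 (46.5 and 39.5).

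Weak clusters among the 10 largest included those between Rgmb and Zfp960 (21 sites, median signals 9 and 7), within Mctp1 (21 sites, 11 and 9), within Ctnna2 (20 sites, 6.5 and 4), within Immp2l (20 sites, 7 and 5), between Cdh11 and Cdh5 (19 sites, 6 and 4) and between Ttll7 and Adgrl2 (19 sites, 7 and 4). Those of Rgmb and Mctp1 each also held a strong site, with maxima of 105 and 37 and of 121 and 31. Regions of a single replicate lay among the sites. The Mctp1 cluster held 8 of replicate 1 alone and 37 of replicate 2 alone, and the Ttll7 cluster 26 and 29. Masked repeat made up between 11.9% and 24.2% of the sequence in these 6 clusters. None of the 6 had a CTCF match.

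**Figure D5:**
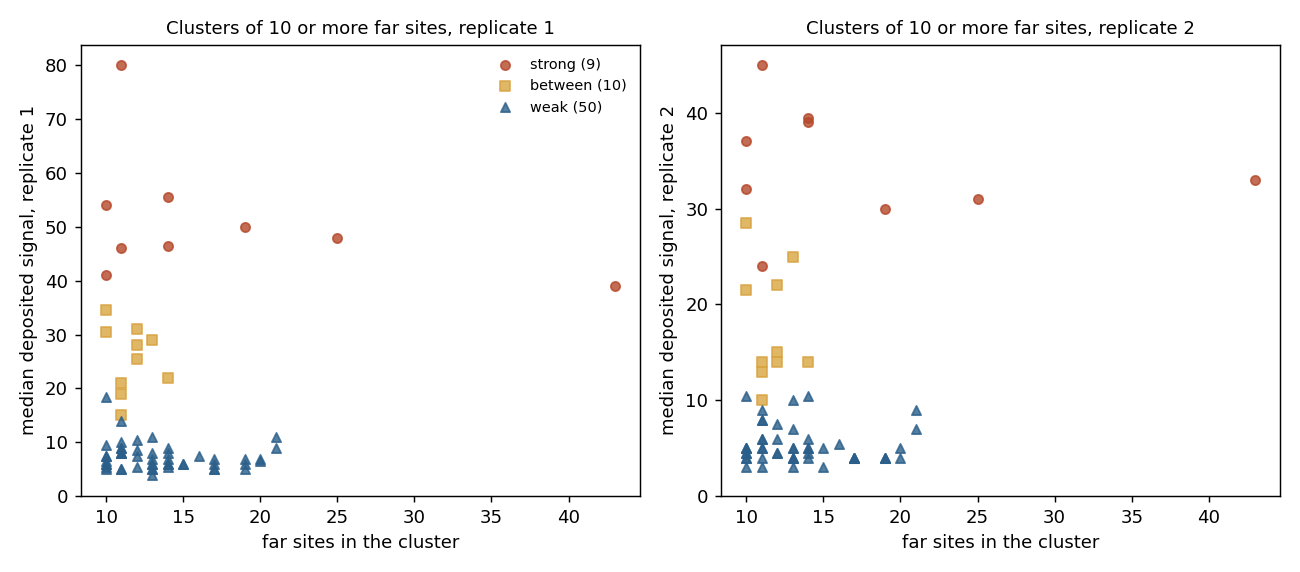
Median deposited signal in replicate 1 (left) and replicate 2 (right) against the number of far sites, for the 69 clusters of 10 or more far sites. The 9 strong clusters have medians of 39 to 80 and 24 to 45, and the 50 weak clusters 4 to 18.5 and 3 to 10.5.

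Across chromosomes, far sites numbered from 11.4 per Mb of eligible sequence on chromosome 15 to 22.5 on chromosome 13. Chromosome 18 had 20.9 per Mb and chromosome 11 20.6, against 13.2 on chromosome 3. As a share of the shared sites of the chromosome, far sites made up 9.59% on chromosome 19, 11.7% on chromosome 11 and 27.6% on chromosome 18.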

How the data were processed

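DNase-seq of 2 biological replicates of embryonic day 11.5 mouse midbrain was used. Per the labels, each replicate pooled male and female embryos of strain B6NCrl. For each replicate the authors deposited peaks and hotspots on mm10, made from that replicate alone, per the records deposited with them. Which aligner and caller made the lists is not given in the sources used here. Deposited peak signal is a whole number per peak with no stated scale, so it was compared between replicates only side by side. The deposited hotspot q-value, on a −log10 scale, served only to describe the hotspots as listed. No read totals are given, so depth is unknown and no counting interval is given.

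Peaks on chromosomes 1 to 19 were merged and far sites kept by the rule above, with TSSs of basic transcripts of protein-coding genes (GENCODE vM21) and sequence from GRCm38.p6, whose chromosomes are as long as in mm10. GC, CpG, masking and motifs were read in 150 bp around the midpoint. Eligible sequence is that more than 100 kb from every such TSS, without N. Named were the 10 strongest and 5 farthest sites, the 10 gaps with most far sites, the 5 densest and the 5 longest empty ones, 3 genes with most far sites and 1 with none per family, the 10 largest clusters, 10 noncoding genes and up to 10 microRNA genes. A few items under this rule are not reported here. Names beyond this rule were chosen after values were seen. The members, lists and named items were chosen with earlier results of these data known. With 1 group and sites that are not replicates, no test was made. Functions were tested on simulated data with planted answers. Python 3.11.15, pandas 2.3.3, numpy 2.4.6 and scipy 1.17.1 were used. Alternatives were another overlap, distance limit, TSS set, window, cluster gap or noncoding limit, the stronger peaks, hotspots, and each replicate alone.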

Additional observations from a re-analysis of the deposited data

How the results depend on the processing

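No result here has a test, so values under each alternative were set against the spread of the 2 single-replicate values and counts against a factor of 1.5. For the shared share the spread was the SD of the shares of each replicate's own regions, 1.46. For the median signals it was the SD of the 2 medians at far sites, 35 and 17, or 12.7, so that a fall from 17 to 6 counted as within it. For density the SD was 9.68, taken from single-replicate values far above the 16.1 per Mb of far sites, so this limit is wide. No paired analysis was possible because there is 1 group. Peaks of a single replicate gave 93441 to 106689 far regions, 96.6 to 110 per Mb, 26.2% to 28.1% in gene bodies, a median GC of 44% in both, 0.894% to 1.41% with a CTCF match, 2.53% to 2.58% within 1 kb of a noncoding TSS, 80.3% to 85.8% in clusters and 2195 to 2227 gaps with a far region. Their median signals were 9 in replicate 1 and 6 in replicate 2, and they can give no share found in both. With limits of 50 and 200 kb, far sites numbered 25611 and 7768, in 3533 and 901 gaps, with 36.5% and 22.4% in bodies, GC of 49.3% and 48%, CTCF at 7.31% and 5.01% and 5.0% and 4.24% near noncoding TSSs. With an overlap of 75 bp, 5.31% of far regions were shared, GC was 49.3%, CTCF 8.35%, noncoding 4.85% and clusters held 27.9%. With the stronger peaks these were 22%, 50%, 7.92%, 5.41% and 33.1%. Hotspots gave 47.3% GC, 4.21% CTCF, 4.29% noncoding and 32.3% in clusters. TSSs of all transcripts gave 19.1% in bodies, 5.47% CTCF and 5.0% noncoding. Sites outside bodies gave 5.55% CTCF and 5.90% noncoding. A window of 300 bp gave 47% GC. Noncoding shares were 13.1% within 5 kb and 3.59% for long noncoding RNA types. Clusters joined at 5 and 20 kb held 31.2% and 52.7%. Adding RefSeq mRNA TSSs, chosen after seeing the data, gave 25.3% in bodies, and adding curated ones alone 4.60% near noncoding TSSs. In all, 69 values stayed within these limits, some of them given above. The factor of 1.5 for counts is wide. Numbers of far sites within it ran from 10824 outside bodies to 15276 with curated RefSeq TSSs added, against 15609. They included 10856 with an overlap of 75 bp, 11659 with the stronger peaks and 12384 with TSSs of all transcripts. Depth is unknown, so how many weak far sites a deeper library would share cannot be told.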
